A study of Mus musculus with 12 samples.

Results

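Transcripts of 10 genes best known from neutrophil granules and neutrophil surfaces were followed in airway eosinophils of allergic mice. They were S100a8, S100a9, Ngp, Ltf, Lcn2, Camp, Olfm4, Itgb2l, Ly6g and Csf3r, 10 of the 39666 genes in the deposited count table, found by their symbols. The genes were chosen by their measured difference between the sorted fractions and their co-variation over the lavages, so both are described here and not tested. The 2 groups were eosinophils sorted as TREM-1+ and, from the same lavage fluid, eosinophils sorted as TREM-1-, with 6 libraries each from 6 lavages. All mice were wild-type C57BL/6, aged 8 to 12 weeks, given 20 µg ovalbumin with 4 mg alum on days 0 and 7, then challenged by nebulizer with 1% ovalbumin, 40 minutes a day on days 16 to 18, with harvest on day 19. Lavage fluid was pooled, and the gate was CD45+, CD11b+, Siglec-F+, high in side scatter and low to middle in CD11c and Ly6G. Ly6G, the product of Ly6g, was therefore part of the gate of both fractions. Whether each of the 6 lavages drew on its own mice is not stated.

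TREM-1 is an activating receptor of myeloid cells. In neutrophils, granule proteins are made in waves during maturation in the bone marrow: primary granule enzymes come first, secondary granule proteins such as lactoferrin follow, and gelatinase-rich tertiary granules come last. The transcription factor C/EBPε drives the secondary granule genes, and eosinophils use the same factor for their own granules. S100A8 and S100A9 pair in the cytosol to form calprotectin, which binds calcium, zinc and manganese and acts as an alarm signal once released.

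Sequence before the transcription start is shown for S100a8 and S100a9, whose products form 1 complex, and for Ngp and Ltf, secondary granule genes. Each run holds the 250 bases before the RefSeq start, read from RefSeq for build GRCm38.p6, which is not the build GRCm39 named in the submitters' processing notes. All 10 genes matched this RefSeq table, with 11 windows, since Ly6g has 2. Capitals mark TTGCNNAA, a core form of the C/EBP motif, or GAGGAA, a core of the PU.1 motif, each searched on both strands.
S100a8, chr3:90668821-90669070, plus strand: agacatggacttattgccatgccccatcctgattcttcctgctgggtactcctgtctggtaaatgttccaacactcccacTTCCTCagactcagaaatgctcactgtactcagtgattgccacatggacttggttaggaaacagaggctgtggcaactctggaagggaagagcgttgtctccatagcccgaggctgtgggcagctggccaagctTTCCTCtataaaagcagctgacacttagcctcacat
S100a9, chr3:90695722-90695971, minus strand: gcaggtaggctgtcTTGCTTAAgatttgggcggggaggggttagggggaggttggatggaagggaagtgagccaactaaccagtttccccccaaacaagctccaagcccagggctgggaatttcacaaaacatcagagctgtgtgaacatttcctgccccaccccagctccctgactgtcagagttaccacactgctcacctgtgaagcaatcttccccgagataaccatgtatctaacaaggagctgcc
Ngp, chr9:110419558-110419807, plus strand: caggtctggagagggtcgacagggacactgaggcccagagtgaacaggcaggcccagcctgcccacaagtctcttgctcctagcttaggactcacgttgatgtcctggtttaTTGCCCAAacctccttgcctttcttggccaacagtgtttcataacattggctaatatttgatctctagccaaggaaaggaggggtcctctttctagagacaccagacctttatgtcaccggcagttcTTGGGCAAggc
Ltf, chr9:111019042-111019291, plus strand: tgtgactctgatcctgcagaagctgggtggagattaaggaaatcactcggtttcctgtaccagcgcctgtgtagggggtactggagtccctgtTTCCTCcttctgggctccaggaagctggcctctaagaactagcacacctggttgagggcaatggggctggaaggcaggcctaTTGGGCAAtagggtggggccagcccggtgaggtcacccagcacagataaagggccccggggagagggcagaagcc
In GENCODE vM21, an annotation of the same build, the gene begins 93 bases further upstream for S100a8, 61 for Ngp and 21 for Ltf. The last bases of those windows thus lie within the gene as annotated there. S100a8 held GAGGAA at 2 places, on the opposite strand (TTCCTC), 170 and 36 bases before the start, and no TTGCNNAA. S100a9 held TTGCTTAA from 236 bases before the start. Ngp held TTGCCCAA from 138 and TTGGGCAA from 11 bases before the start, and Ltf held the same TTGGGCAA from 75 bases and TTCCTC from 157 bases before the start. TTGCNNAA was in 5 of the 11 windows, against 9.56% of 32851 windows of the same length, and GAGGAA in 8 of the 11, against 23.3%. By gene, TTGCNNAA was found for 5 of 10 and GAGGAA for 7 of 10, since the windows of Ly6g overlap and hold the same GAGGAA matches. These are matches of letters and were not tested as binding sites.

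Total counts per library lay between 8626701 and 19274912 in TREM-1+ and between 16513387 and 21234053 in TREM-1- eosinophils, and the library with the smallest total was TREM-1+ of lavage 4. Trem1, the gene of the sorted antigen, averaged 93.1 ± 20.0 CPM in TREM-1+, against 30.7 ± 8.12 CPM in TREM-1- eosinophils (SD, n = 6 each), higher in 6 of 6 pairs. CPM are depth-scaled counts, here with TMM factors that hold most genes level between libraries. Siglecf, the gene of the gated eosinophil antigen, stood at 796 ± 64.9 CPM in TREM-1+, against 875 ± 91.8 CPM in TREM-1- libraries (SD, n = 6 each), lower in 6 of 6 pairs (edgeR adjusted p = 0.00541). Of 8 eosinophil markers, Prg2, Alox15 and Ear6 rose and Ccr3, Siglecf and Il5ra fell. The sum of the 8 markers was 3949 to 6054 CPM in TREM-1+, against 3836 to 6004 CPM in TREM-1-, higher in 6 of 6 pairs. The largest part of this sum was Alox15 (mean CPM: TREM-1+ 2542, TREM-1- 2239). Ccr3, Siglecf and Il5ra were each lower in 6 of 6 pairs, so the sum does not speak for every marker. Library totals in place of TMM factors shifted the median of all genes to 0.13 on the log2 scale. The libraries of lavages 1 and 2 lay closest to each other, with a chi-square per gene of 6.88 in TREM-1+ and 5.26 in TREM-1- eosinophils, where counting noise alone would give about 1 and every other pair of lavages gave 20.6 to 191.

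Both calprotectin genes were higher in TREM-1+ eosinophils in every lavage, and S100a8 differed more than any other gene of the set. S100a8 had 6.83, 11.8, 11.9, 7.49, 7.96 and 6.35 CPM in TREM-1+ libraries of lavages 1 to 6, against 2.23, 1.92, 1.91, 1.19, 2.12 and 0.85 CPM in their TREM-1- partners. The groups did not overlap: the lowest TREM-1+ library, in lavage 6, lay well above the highest TREM-1- library, in lavage 1. The mean was 8.72 ± 2.48 CPM in TREM-1+, against 1.70 ± 0.55 CPM in TREM-1- eosinophils (SD, n = 6 each), a fitted fold of 5.09 (log2 fold change 2.35 ± 0.19, SE). These levels rest on few reads, 828 counts over the 6 TREM-1+ and 188 over the 6 TREM-1- libraries.

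S100a9 had 111, 118, 105, 58.1, 131 and 62.0 CPM in TREM-1+ libraries of lavages 1 to 6, against 47.7, 53.7, 36.4, 15.6, 52.0 and 18.0 CPM in TREM-1- libraries. The groups again did not overlap, and lavages 4 and 6 were low in both fractions. The fitted fold was 2.72 (log2 fold change 1.45 ± 0.09, SE), from 97.5 ± 30.4 CPM in TREM-1+, against 37.3 ± 17.0 CPM in TREM-1- eosinophils (SD, n = 6 each). Of all tested genes, 0.295% had a lowest TREM-1+ library above the highest TREM-1- library, and in the set S100a8, S100a9 and Ltf did.

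**Figure D1:**
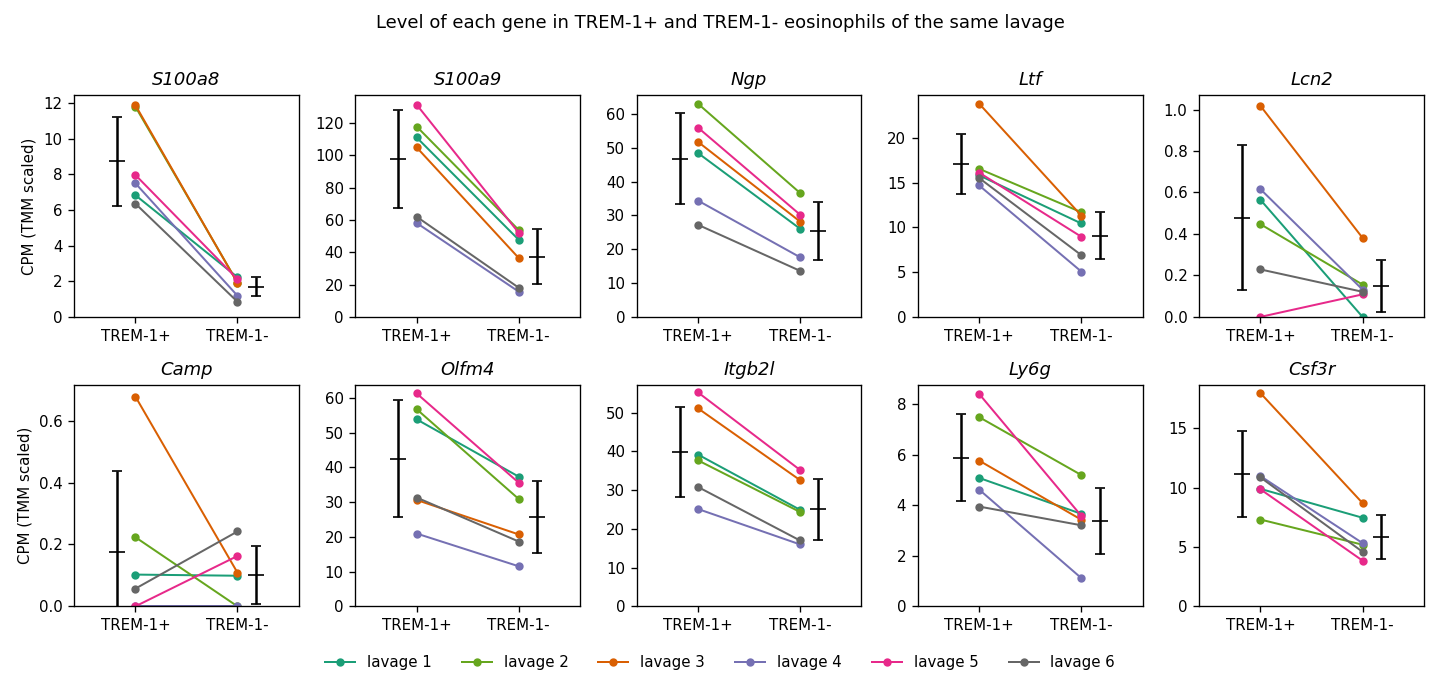
Level (CPM, linear axes from 0) of each of the 10 genes in TREM-1+ (left) and TREM-1- (right) libraries, with a line joining the fractions of 1 lavage and black bars for the mean ± SD of 6 libraries. Every line falls to the right for 8 genes, whereas Lcn2 and Camp stay near or below 1 CPM and their lines cross; the bar of Camp is clipped at 0.

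The subunits were far from equal in amount. Per kilobase of the longest GENCODE transcript, S100a9 stood at 188 ± 58.5 CPM per kb in TREM-1+, against 71.8 ± 32.7 CPM per kb in TREM-1- eosinophils, and S100a8 at 17.5 ± 4.97 and 3.42 ± 1.11 CPM per kb in the same order (SD, n = 6 each). S100a9 thus exceeded S100a8 per kilobase 7.44-fold to 15.8-fold in TREM-1+ libraries and 12.6-fold to 26.8-fold in TREM-1- libraries.

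As a share of the counts of both subunits, S100a8 made up 8.58 ± 2.34% in TREM-1+ and 4.72 ± 1.26% in TREM-1- eosinophils (SD, n = 6 each). In all 6 lavages TREM-1+ had the higher share. The gap was widest in lavage 2, with 9.10% in TREM-1+ (95% Clopper-Pearson interval 7.96 to 10.3%) and 3.46% in TREM-1- (2.44 to 4.73%). It was narrowest in lavage 1, with 5.79% (4.87 to 6.83%) in TREM-1+ and 4.46% (3.27 to 5.92%) in TREM-1-. The intervals of a pair were apart in lavages 2, 3 and 6 and overlapped in lavages 1, 4 and 5. They cover counting error alone.

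**Figure D2:**
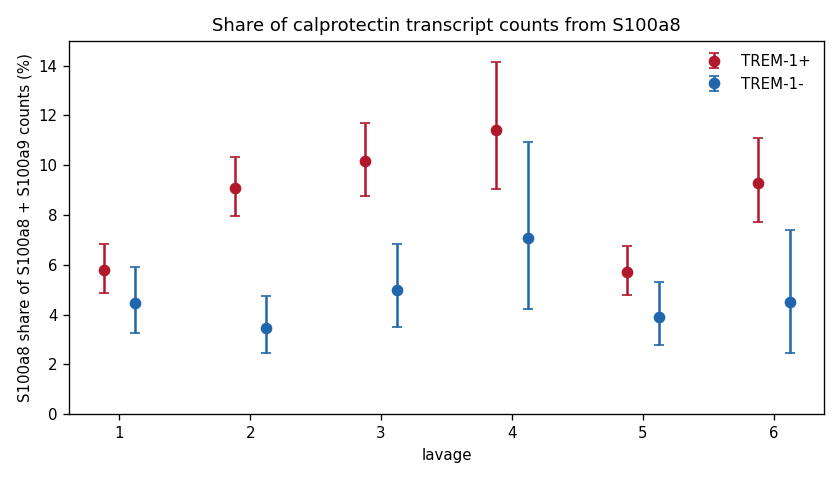
Share of S100a8 in the summed counts of S100a8 and S100a9 (percent, axis from 0) by lavage, TREM-1+ left of TREM-1-, with 95% Clopper-Pearson intervals. TREM-1+ points run from 5.72 to 11.4% and TREM-1- points from 3.46 to 7.06%, and in each lavage the TREM-1+ point is the higher.

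Secondary granule genes were of 2 kinds in these libraries: Ngp, Ltf and Olfm4 were measurable everywhere, and Lcn2 and Camp were barely present. Ngp encodes neutrophilic granule protein, a cystatin-like relative of the cathelicidins. It had 48.5, 63.0, 51.8, 34.4, 56.0 and 27.2 CPM in TREM-1+ libraries of lavages 1 to 6, against 26.1, 36.6, 28.2, 17.6, 30.2 and 13.6 CPM in TREM-1- libraries. The ranges overlapped, yet each TREM-1+ library was above its own partner by much the same factor, with paired log2 differences between 0.78 and 1.00. The fitted log2 fold change was 0.89 ± 0.07 (SE).

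Ltf, the gene of the iron-binding protein lactoferrin, had 15.8, 16.5, 23.8, 14.7, 16.1 and 15.5 CPM in TREM-1+ libraries of lavages 1 to 6, against 10.4, 11.7, 11.3, 5.07, 8.96 and 6.90 CPM in TREM-1- libraries. The groups did not overlap. The TREM-1+ libraries lay close together apart from lavage 3, while the TREM-1- libraries varied more, and the paired log2 difference ran from 0.50 in lavage 2 to 1.52 in lavage 4. The fitted log2 fold change was 0.93 ± 0.12 (SE).

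Olfm4, whose product olfactomedin 4 marks a subset of neutrophils, had 53.8, 56.7, 30.6, 20.9, 61.3 and 31.3 CPM in TREM-1+ libraries of lavages 1 to 6, against 37.3, 30.9, 20.7, 11.5, 35.6 and 18.6 CPM in TREM-1- libraries. Of the 8 genes that passed the filter on low counts, it had the largest share of its variation between lavages: of the sum of squares of its log2 CPM over the 12 libraries, 71.2% lay between lavages and 27.8% between fractions, against 8.49% and 88.3% for S100a8. The fitted log2 fold change was 0.72 ± 0.07 (SE).

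Lcn2, the gene of the siderophore-binding protein lipocalin-2, had counts of 11, 8, 15, 6, 0 and 4 in TREM-1+ libraries and 0, 3, 7, 2, 2 and 2 in TREM-1- libraries. Camp, the gene of the antimicrobial peptide precursor cathelicidin, had counts of 2, 4, 10, 0, 0 and 1 in TREM-1+ and 2, 0, 2, 0, 3 and 4 in TREM-1- libraries. A count of 0 allows up to 3 counts, which is 0.191 CPM for Lcn2 in TREM-1+ of lavage 5 and 0.148 CPM in TREM-1- of lavage 1. Both genes failed the filter on low counts, and no fold change is given for them. In sum Lcn2 had 44 counts in TREM-1+ and 16 in TREM-1- libraries, and Camp 17 and 11, at depths where Ngp had 4525 and 2800.

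Of the genes for surface proteins, Itgb2l was the most even. It encodes an integrin beta chain close to the leukocyte integrin chain beta 2. Itgb2l had 39.2, 37.7, 51.2, 25.1, 55.3 and 30.8 CPM in TREM-1+ libraries of lavages 1 to 6, against 24.9, 24.4, 32.6, 16.0, 35.2 and 17.0 CPM in TREM-1- libraries. The ranges overlapped, but 5 of the 6 paired log2 differences lay between 0.63 and 0.65, and lavage 6 stood at 0.86. The fitted log2 fold change, 0.68 ± 0.07 (SE), was the smallest of the 8 genes that passed the filter.

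Csf3r, the gene of the receptor for the neutrophil growth factor G-CSF, had 7.32 CPM in the lowest (lavage 2) and 18.0 CPM in the highest (lavage 3) TREM-1+ library, with a median of 10.4 CPM, against 3.85 CPM in the lowest (lavage 5) and 8.71 CPM in the highest (lavage 3) TREM-1- library, with a median of 5.27 CPM. The ranges overlapped, and the TREM-1+ library was the higher one in each lavage. The difference was smaller in lavages 1 and 2, at 0.40 and 0.49 on the log2 scale, than in lavages 3 to 6, at 1.03 to 1.34. The fitted log2 fold change was 0.92 ± 0.14 (SE) over all lavages, 0.47 in lavages 1 and 2 alone and 1.16 in lavages 3 to 6 alone, and this difference between lavages was not tested.

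Ly6g encodes the surface antigen by which mouse neutrophils are usually recognised. It had 5.08, 7.49, 5.77, 4.62, 8.41 and 3.95 CPM in TREM-1+ libraries of lavages 1 to 6, against 3.66, 5.20, 3.43, 1.12, 3.58 and 3.21 CPM in TREM-1- libraries. Its paired log2 differences were the most uneven of the 8, between 0.29 in lavage 6 and 1.99 in lavage 4, where the TREM-1- library had 17 counts. The fitted log2 fold change was 0.82 ± 0.20 (SE).

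**Figure D3:**
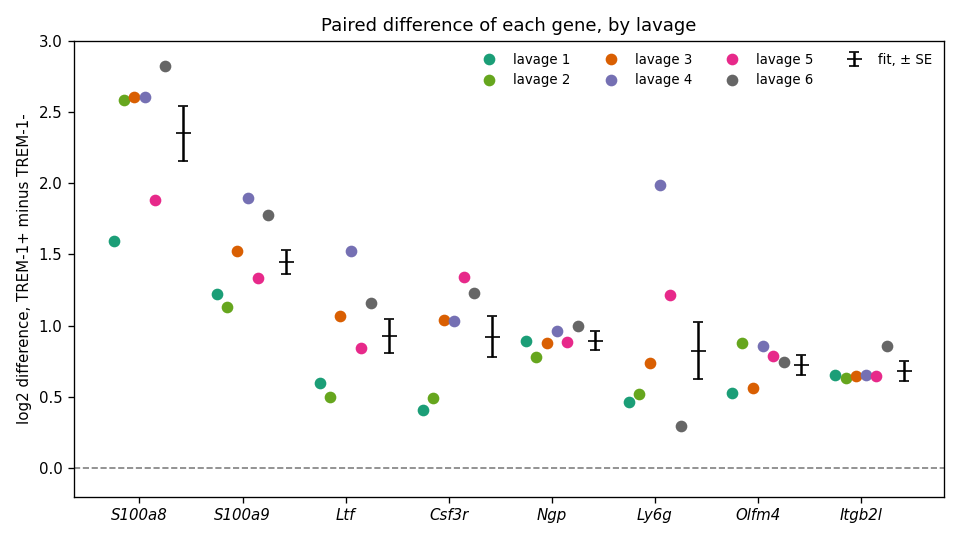
Paired log2 difference (TREM-1+ minus TREM-1-, prior count 1) of the 8 genes that passed the filter, 1 coloured point per lavage, with the fitted log2 fold change ± SE in black. All points are above 0; S100a8 lies between 1.59 and 2.82, Ngp and Itgb2l are tightly grouped and Ly6g is the most spread.

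In the fit over all genes, 8 of the 10 passed the filter on low counts, and all 8 were called higher, against 9.82% of 18302 genes called in either direction and 3.10% called higher. All 8 were also higher in 6 of 6 pairs, against 5.08% of genes. Since this contrast chose the set, nothing is read from that count. Their median log2 fold change was 0.91, against 0.00 for all genes tested, and ran by lavage from 0.62 in lavage 1 to 1.28 in lavage 4. Without the lavage block S100a8 and Ltf alone were called (0.454% of all genes were), and in lavages 1 and 2 alone Csf3r and Ly6g were not called (8.45% of all genes were). S100a8 differed more than each of the 6 genes other than S100a9 in all 6 lavages. S100a9 did so in 4 lavages, with Ly6g above it in lavage 4 and Csf3r in lavage 5.

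Ordered by length-scaled level in TREM-1+ eosinophils, S100a9 was followed by Ngp at 38.3 ± 11.1, S100a8 at 17.5 ± 4.97, Olfm4 at 15.2 ± 6.00 and Itgb2l at 14.2 ± 4.12 CPM per kb (SD, n = 6). Ly6g at 6.25 ± 1.84, Ltf at 6.23 ± 1.22 and Csf3r at 3.20 ± 1.03 CPM per kb came next. In TREM-1- eosinophils S100a8 stood lower in the order, at 3.42 ± 1.11 CPM per kb, beside Ly6g at 3.58 ± 1.39 and Ltf at 3.30 ± 0.96. S100a8, Olfm4 and Itgb2l did not differ beyond their spread in TREM-1+ libraries, nor did S100a8, Ly6g and Ltf in TREM-1- libraries. Lengths came from an annotation other than the authors' and shift all libraries of a gene alike.

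**Figure D4:**
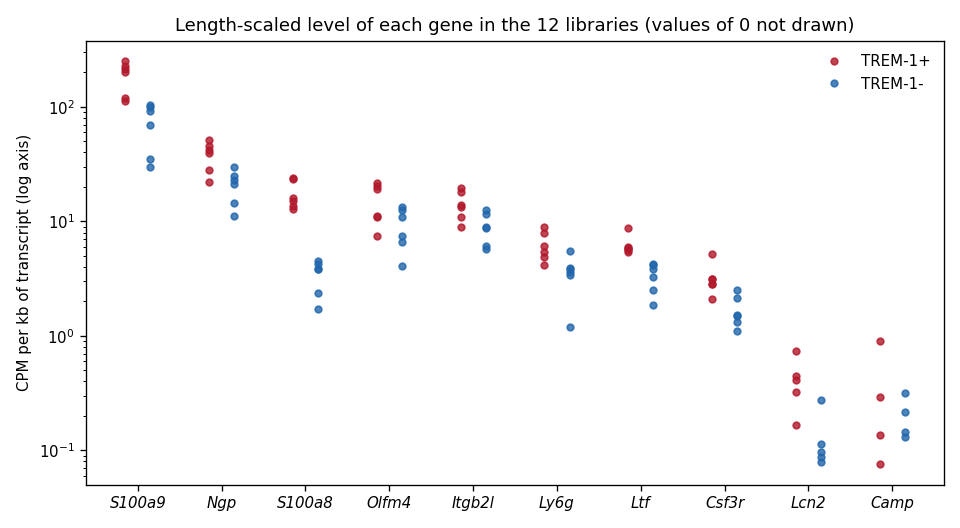
CPM per kilobase of transcript (log axis) of the 10 genes in each library, TREM-1+ (red) left of TREM-1- (blue), ordered by the TREM-1+ mean. S100a9 is highest, S100a8 changes its place between the fractions, and Lcn2 and Camp lie below 1 CPM per kb where they were detected.

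The level of the set as a whole also varied from lavage to lavage, and similarly in both fractions. Summed over the 8 genes, the level by lavage was 290, 318, 298, 176, 346 and 188 CPM in TREM-1+ eosinophils, against 160, 170, 143, 73.5, 172 and 82.9 CPM in TREM-1- eosinophils. Lavages 4 and 6 were thus the low ones in both fractions. The lowest TREM-1+ library was that of lavage 4 for S100a9, Ltf, Olfm4 and Itgb2l, that of lavage 6 for S100a8, Ngp and Ly6g, and that of lavage 2 for Csf3r. In TREM-1- libraries lavage 4 was lowest for 5 genes and lavage 6 for S100a8 and Ngp, with Csf3r lowest in lavage 5. Csf3r alone had its lowest libraries outside lavages 4 and 6, and its highest level was in lavage 3 in both fractions. In TREM-1+ libraries S100a8 and Ltf followed the sum less closely. S100a8 had 7.49 CPM in lavage 4, against 6.83 CPM in lavage 1, and Ltf lay between 14.7 and 16.5 CPM outside lavage 3. Trem1 was highest in lavage 4 in both, at 131 CPM in the TREM-1+ library, against 42.1 CPM in its TREM-1- partner.

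Over the 12 libraries, Pearson's r of log2 CPM between the genes had a median of 0.815 over 28 pairs of genes, and ran from 0.25 for Olfm4 with Csf3r to 0.95 for S100a9 with Ngp. The libraries come in pairs from shared lavages and in 2 fractions, so r holds both sources of variation, and it is a description. Among 16701 genes of at least 1 CPM, those most like S100a8 were Sh3tc1 (0.97), Matk (0.94), Niban1 (0.94), Gsdme (0.94) and Pald1 (0.92), with S100a9 at place 15. Among the 5 most like S100a9 were Phactr2 (0.98), Adpgk (0.97), Ngp (0.95) and Tsc1 (0.95). Those most like Ltf were Sh3tc1 (0.96), Igf1r (0.95), Sema4f (0.95), Ikzf3 (0.93) and Adpgk (0.92).

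Other genes of the same pathways, which can be tested, moved in both directions. Of 122 such genes with a row in the counts, 90 were tested, and 12 rose and 28 fell in TREM-1+ eosinophils by edgeR's quasi-likelihood test (adjusted p below 0.05 over all genes), with a median log2 fold change of -0.05. Over all genes 3.10% rose and 6.72% fell. With library totals in place of TMM factors 17 rose and 14 fell (12.3% of all genes were called). Without the lavage block 2 rose and 6 fell. Emb and Mgam, which rose, and Cebpb, Cfp, Itgb7, Mmp9 and Slc11a1, which fell, held in that fit and under all 16 alternatives, and every other call among the related genes was lost in it. Calls of cell type markers outside the related genes were made in the fit with all lavages only.

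The neutrophil primary granule enzyme genes Elane, Ctsg and Mpo were almost without counts: Elane and Ctsg had 0 in all 12 libraries, and Mpo had 1 count in TREM-1+ and 2 in TREM-1- libraries. Of the 4 primary granule genes tested, Lyz2, the lysozyme gene, rose (log2 fold change 1.13 ± 0.22, SE, edgeR adjusted p = 0.0089) and so did Ctsc, the gene of the protease that activates granule enzymes (0.43 ± 0.11, adjusted p = 0.00587). Lyz2 was not called without lavage 1, without lavage 3 or in lavages 3 to 6 alone, and Ctsc not without lavages 3 and 4 or in lavages 1 and 2 alone. Of 9 tested secondary granule genes outside the set, Hp, the haptoglobin gene, rose (0.69 ± 0.21, adjusted p = 0.0355), a call lost under 8 of the 16 alternatives. Pglyrp1, a peptidoglycan-binding protein gene, fell (-0.20 ± 0.04, adjusted p = 0.000356), a call lost with library totals. Itgam, at 2499 ± 313 CPM in TREM-1+, against 2569 ± 347 CPM in TREM-1- libraries (SD, n = 6 each), did not pass (adjusted p = 0.492).

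Tertiary granule genes mostly fell, in 4 of 7 tested. Slc11a1, a metal transporter gene (log2 fold change -0.69 ± 0.04, SE, edgeR adjusted p = 1.44e-12), Mmp9, the gelatinase B gene (-0.59 ± 0.05, adjusted p = 1.2e-08), and the protease gene Adam8 (-0.27 ± 0.03, adjusted p = 4.16e-08) had the smallest p. Mmp9 averaged 185 ± 37.1 CPM in TREM-1+, against 275 ± 30.8 CPM in TREM-1- eosinophils (SD, n = 6 each). Arg1, the arginase gene, rose (1.499 ± 0.17, adjusted p = 2.82e-06, higher in 5 of 6 pairs). It was not called in lavages 1 and 2 alone, and its log2 fold change was 0.86 or more under all 16 alternatives.

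Genes of mature neutrophils divided as well, with 3 of 12 tested higher and 4 lower. Cxcr2, the receptor gene for neutrophil chemokines, rose (log2 fold change 0.22 ± 0.03, SE, edgeR adjusted p = 1.84e-05), as did Mgam (2.01 ± 0.37, adjusted p = 0.000238), at 2.47 ± 0.63 CPM in TREM-1+, against 0.62 ± 0.33 CPM in TREM-1- eosinophils. Cd101 rose by 0.11 ± 0.03 (adjusted p = 0.0209), a call lost in 5 alternatives. Padi4 fell (-0.31 ± 0.03, adjusted p = 4.52e-08), as did Retnlg (-0.38 ± 0.04, adjusted p = 4.37e-07). Retnlg, a common neutrophil marker gene in mice, had 1244 ± 251 CPM in TREM-1+, against 1603 ± 236 CPM in TREM-1- eosinophils (SD, n = 6 each).

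Of 10 other S100 genes tested, 3 fell. S100a11 (log2 fold change -0.22 ± 0.04, SE, edgeR adjusted p = 2.94e-05), S100a6 (-0.20 ± 0.04, adjusted p = 0.00117) and S100a10 (-0.17 ± 0.04, adjusted p = 0.00935) fell, and with library totals the 3 were not called. S100a4 had 1.44 ± 0.99 CPM in TREM-1+, against 0.98 ± 0.51 CPM in TREM-1- libraries.

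Among receptors for the secreted products, Emb, the gene of embigin, a receptor of calprotectin, rose (log2 fold change 0.77 ± 0.12, SE, edgeR adjusted p = 3.17e-05, higher in 6 of 6 pairs). It had 13.1 ± 2.89 CPM in TREM-1+, against 7.61 ± 1.45 CPM in TREM-1- eosinophils (SD, n = 6 each). Lrp1, the gene of an endocytic receptor that also binds lactoferrin, rose (1.39 ± 0.09, adjusted p = 1.81e-12). The calprotectin receptor gene Tlr4 had 55.4 ± 9.57 CPM in TREM-1+, against 56.3 ± 9.38 CPM in TREM-1- libraries, and Bsg, the basigin gene, 60.9 ± 10.7 and 61.9 ± 10.2 CPM in the same order, and neither passed (adjusted p = 0.914 and 0.869).

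Of 12 transcription factor genes tied to granule formation, 4 fell and 1 rose. Cebpb, at 286 ± 29.6 CPM in TREM-1+, against 448 ± 59.0 CPM in TREM-1- eosinophils (SD, n = 6 each), fell most (log2 fold change -0.64 ± 0.03, SE, edgeR adjusted p = 1.42e-14) and was called under all 16 alternatives. Spi1, the gene of PU.1, fell by 0.16 on the log2 scale (edgeR adjusted p = 0.00278) and Stat3 fell by 0.12 (adjusted p = 0.0158). Neither was called with library totals or in lavages 3 to 6 alone. The call of Spi1 was lost in 3 alternatives and that of Stat3 in 8. Cebpe, the gene of C/EBPε, had 473 ± 94.5 CPM in TREM-1+, against 510 ± 102 CPM in TREM-1- eosinophils (log2 fold change -0.11 ± 0.03, adjusted p = 0.0299), a call lost in 10 alternatives and of the opposite sign with library totals (0.02). Cebpa rose (0.59 ± 0.18, adjusted p = 0.0264, lost in 6 alternatives). Klf5 at 102 ± 26.8 CPM in TREM-1+, against 99.6 ± 24.2 CPM in TREM-1-, Runx1 at 128 ± 20.4 and 132 ± 34.0 CPM and Cebpg at 56.9 ± 13.4 and 57.0 ± 10.1 CPM did not pass (adjusted p = 0.828, 0.797 and 0.945).

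Genes that carry the signal of the G-CSF receptor fell in 8 of 14 tested, by small amounts. Lyn (log2 fold change -0.29 ± 0.03, SE, edgeR adjusted p = 1.09e-07), a kinase gene, and the feedback inhibitor gene Socs3 (-0.32 ± 0.06, adjusted p = 9.65e-05) were among them. Jak1, Syk, Stat3, Grb2 and Jak2 were not called with library totals, where Syk, Stat3, Grb2 and Jak2 stood at or just above 0. Of the 16 alternatives, the call was lost in 10 for Jak2, 9 for Grb2, 8 for Stat3, 5 for Syk and 2 for Jak1. Of the genes beside Ly6g in the Ly6 family, Ly6c2 (-0.32 ± 0.05, adjusted p = 0.000418) and Ly6e (-0.13 ± 0.03, adjusted p = 0.00555) fell and Ly6a rose (0.77 ± 0.16, adjusted p = 0.00108). Ly6e was not called with library totals, and neither Ly6e nor Ly6a without lavages 3 and 4. Reads may be shared between close copies of this family. Of 9 integrin genes, Itgb7 (-0.45 ± 0.04, adjusted p = 8.66e-10), Itga4 (-0.31 ± 0.04, adjusted p = 1.81e-06) and Itgal (-0.19 ± 0.03, adjusted p = 5.8e-05) fell. Itgal was not called with library totals. Itgb3 rose (0.17 ± 0.04, adjusted p = 0.012), a call lost in 4 alternatives. Itgb2, the close relative of Itgb2l, had 1203 ± 168 CPM in TREM-1+, against 1146 ± 175 CPM in TREM-1- eosinophils and did not pass (adjusted p = 0.156).

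**Figure D5:**
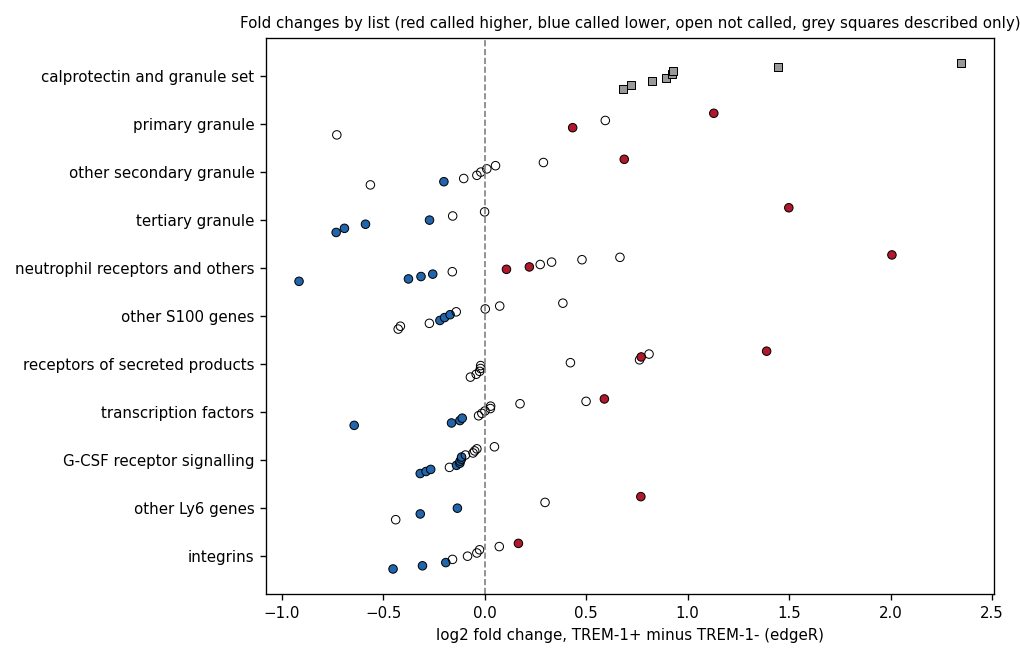
Fitted log2 fold change (TREM-1+ minus TREM-1-) of the calprotectin and granule set (grey squares, described only) and of the tested genes of 10 related lists, 1 point per gene, red where called higher, blue where called lower and open where not called. The set lies between 0.68 and 2.35, whereas the related lists lie on both sides of 0.

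Markers of other cells were read in the same libraries, since neutrophils passing the gate would bring these transcripts with them. Fewer cells of a type and less RNA per cell cannot be told apart in bulk libraries. Of 14 neutrophil markers outside the set, 9 were tested, and Cxcr2 rose while Mmp9, Padi4 and Retnlg fell. Their summed level was 2619 to 4281 CPM in TREM-1+, against 3124 to 4441 CPM in TREM-1- libraries, lower in TREM-1+ in 6 of 6 pairs. The largest parts of the sum were Mmp25 (mean CPM: TREM-1+ 1357, TREM-1- 1354) and Retnlg (1244 and 1603 in the same order). It therefore says little of the low markers. Trem3 (log2 fold change 0.67) and Cxcr1 (0.33) lay higher, and Il1r2 (-0.16) and Cd177 (-0.56) lower. None of them passed (edgeR adjusted p from 0.0902 to 0.435). Several defining markers were near 0 in both fractions: over 6 libraries each, Mmp8 had 22 counts in TREM-1+ and 21 in TREM-1-, Wfdc21 had 8 and 4, Mrgpra2b 6 and 4, Stfa2l1 5 and 3, and Mrgpra2a 0 and 3. Among T cell markers, Cd3e, Il7r, Lck, Cd4 and Cd3g, 5 of 7 tested, rose. The median log2 fold change of the 7 was 1.06, against 0.91 for the 8 genes of the set. T cell markers summed to 8.72 to 95.5 CPM in TREM-1+, against 7.38 to 51.1 CPM in TREM-1- libraries, higher in 6 of 6 pairs. Of 6 tested monocyte markers Fn1 and Ccr2 rose and Ly6c2 fell, with sums of 643 to 1230 CPM in TREM-1+, against 735 to 1330 CPM in TREM-1-. Of 4 tested macrophage markers Car4 rose and Adgre1 fell, with sums of 946 to 1480 CPM in TREM-1+, against 958 to 1511 CPM in TREM-1-. Most of the monocyte sum was Ly6c2 (mean CPM: TREM-1+ 540, TREM-1- 667) and Csf1r (215 and 220 in the same order). Most of the macrophage sum was Adgre1 (876 and 983) and Car4 (318 and 201). Both sums therefore say little of the low markers. Mrc1, the mannose receptor gene, had 12.2 ± 9.81 CPM in TREM-1+, against 5.75 ± 7.11 CPM in TREM-1- libraries (SD, n = 6 each), higher in 6 of 6 pairs, and did not pass (edgeR adjusted p = 0.0829). Of the 7 macrophage markers too low to test, C1qb had 90 counts in TREM-1+ and 19 in TREM-1- libraries, Krt79 had 90 and 56, C1qc 33 and 16, Ms4a7 27 and 27, C1qa 20 and 23, Marco 11 and 5, and Fabp4 6 and 18. Sums of B cell markers were 7.80 to 16.1 CPM in TREM-1+, against 8.11 to 14.6 CPM in TREM-1-, of epithelial markers 14.8 to 41.0 and 16.9 to 74.8 CPM, of basophil and mast cell markers 1.73 to 7.33 and 1.77 to 9.61 CPM, and of erythroid markers 1.33 to 2.46 and 1.04 to 3.75 CPM, in that order of fractions. The part of other cells in the levels of the set was not tested.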

How the data were processed

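Per the labels' protocols, ribosomal RNA was removed before stranded library preparation, and sequencing used paired 100 bp reads. The deposited table holds estimated counts per gene, whole numbers as deposited; rounding changed 0 values. A second table deposited by the authors holds log2 CPM of 17934 genes, 8 of the 10 described here among them; TMM factors and a prior count of 1 gave its values to within 5e-09. The submitters' processing notes list GRCm39, edgeR 3.42.4 under R 4.3.0, and kallisto 0.45.0. Annotation and strand setting are not given in the sources used here. Overlapping antisense reads may therefore be mixed.

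Counts were fitted with edgeR 4.0.16 in R 4.3.3 (TMM, filterByExpr with a minimum count of 10 and total of 15, robust quasi-likelihood F test), with lavage as a block, and checked on simulated data. A gene was called where its p, adjusted over 18302 genes by Benjamini-Hochberg, was below 0.05. The SE was derived from the F statistic. Paired differences use log2 CPM (prior count 1). Alternatives included limma 3.58.1 and DESeq2 1.42.0. The genes and lists were chosen with earlier results of these data known. From each related list, up to 3 called genes per direction with the smallest p are named, receptor and transcription factor genes of at least 50 CPM are given as values, and the 5 genes most like S100a8, S100a9 and Ltf are named; some genes that this rule takes are not reported here. Genes given to describe near-absent markers, Mpo, Elane, Ctsg, Siglecf, Itgam, Itgb2, S100a4, Mrc1 and the untested macrophage markers were named after their values were seen.

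Per the series' design text both fractions were sorted from each lavage, which pairs them; deviations of partners from their group means had r of 0.13 to 0.50, and in lavage 3 the TREM-1+ library was closer to another lavage than to its partner, unlike in the other 5. The unit of replication is the pooled lavage, so the p-values speak of how these 6 pools vary. Since lavages 1 and 2 lay closest, their summation to 1 pair was an alternative. Intervals and limits for counts of 0 cover counting error only.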

Additional observations from a re-analysis of the deposited data

Results flagged for a closer look

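Over the 8 genes that passed the filter, 6 libraries of each fraction and 6 paired differences were examined for a value far from the rest, and 3 stood apart by Dixon's criterion (95%), which chance meets in about 1 of 20 such groups. Ltf in TREM-1+ eosinophils was highest in lavage 3, at 4.58 log2 CPM. Ly6g in TREM-1- eosinophils was lowest in lavage 4, at 0.24 log2 CPM, from 17 counts. The paired log2 difference of Itgb2l was highest in lavage 6, at 0.86.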

How the results depend on the processing

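The 8 genes of the set kept their direction under all 16 alternatives. Their median log2 fold change, 0.91, ran from 0.69 in lavages 1 and 2 alone to 1.08 in lavages 3 to 6 alone, and from 0.86 to 0.96 when 1 lavage at a time was left out. Summing lavages 1 and 2 to 1 pair gave 0.95. With library totals alone the log2 fold change became 1.02 in Ngp and 0.80 in Itgb2l, and Csf3r stood at 0.47 in lavages 1 and 2 alone. Of all genes, 568 were higher and 1229 lower. With library totals alone 1880 were higher and 376 lower, and in the fit without the replicate block 27 and 56. In lavages 3 to 6 alone 366 were higher and 802 lower, and without lavages 3 and 4, 347 were higher. With fewer samples fewer calls can be made, yet lavages 1 and 2 alone gave 425 higher and 1142 lower. Those lavages lay closest to each other, and the part of sample number in these counts was not tested. Leaving out 1 lavage gave 404 to 474 higher and 981 to 1137 lower. Of the related genes, 12 higher and 28 lower, library totals alone gave 14 lower and no replicate block gave 2 higher and 6 lower. There were 7 higher without lavages 3 and 4 and 5 higher in lavages 1 and 2 alone. Leaving out 1 lavage gave 9 to 12 higher and 23 to 30 lower. The cause of the changes with library totals and without the block was not tested. Low counts limit S100a8 in TREM-1- libraries (14 to 45 counts) and Ly6g, and leave Lcn2 and Camp without a fold change.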
